A study of Mus musculus with 36 samples.

Results

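Deletion of the estrogen-related receptors ERRbeta and ERRgamma in muscle was followed here through 1 contrast, the difference between its effect in the slow soleus and its effect in the fast extensor digitorum longus (EDL). The members are the 12 libraries of the ERRbeta/ERRgamma deletion class, of 36 libraries in the series, chosen by the class letters in their column names. They come from 6 mice, 3 knockout-labelled and 3 wild type, each giving 1 soleus and 1 EDL, and a number that opens the column name ties the 2 muscles of a mouse together. The value reported is the change with deletion in soleus minus the change with deletion in EDL, on the log2 scale. It equals the soleus minus EDL gap of knockout-labelled mice minus that gap in wild types. A negative value means that soleus lost more, or gained less, than EDL.

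All mice carried floxed receptor alleles on the C57BL/6JBom background after at least 10 generations of backcrossing, and were males aged 1 year, kept on chow. The knockout-labelled mice (FXp in the column names) were read as also carrying Cre recombinase under the human alpha-skeletal actin promoter, which acts in muscle fibres and leaves the receptors of vessels, fibroblasts and leukocytes in place. The wild types (FX-) were read as floxed littermates without Cre. Every direction below rests on that reading of the marks. Knockout-labelled mice are called KO 1 to KO 3 and wild types WT 1 to WT 3, as names only, and where values of 3 mice are set against 3 others the wild types come first unless said otherwise.

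ERRs are orphan nuclear receptors that bind DNA without a known natural ligand and act with the coactivators PGC-1alpha and PGC-1beta on genes of fatty acid oxidation, the tricarboxylic acid (TCA) cycle and the respiratory chain. ERRalpha and ERRgamma are the forms best known in oxidative muscle, and ERRbeta is the least studied there. Soleus holds many slow oxidative fibres, which burn fat and keep slow myosin and troponin, while the EDL of mice is almost wholly made of fast glycolytic fibres.

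Each library showed the muscle it was labelled with. The slow myosin heavy chain Myh7 lay between 9.69 and 10.5 in the 6 soleus libraries and between -1.15 and 2.33 in the 6 EDL libraries, and the fast markers Myh4, Tnni2, Actn3 and Pvalb did not overlap in the other direction. The fast markers Myh1 (7.07 to 9.85 in soleus, 9.65 to 10.1 in EDL) and Tnnt3 (11.3 to 12.2 and 12.1 to 12.4) overlapped. Between 13787 and 14846 genes were detected per library, and the read depth is unknown because the deposited values were quantile normalized. The soleus libraries of KO 1 and KO 2 stood apart from their group: the standard deviation of their gene-wise deviations from the group mean was 0.449 and 0.413, against 0.243 to 0.297 in the other 10. Markers of leukocytes varied among the knockout-labelled soleus libraries in another order. Their summed level over 18 genes was 5.18, 6.97 and 5.55 in wild-type soleus and 8.65, 5.55 and 7.21 in knockout-labelled soleus, so that KO 1 was the highest, KO 3 also lay above the wild types and KO 2 lay inside their range. The summed level of 22 fibroblast and matrix genes was 7.73, 8.83 and 7.86 in wild types against 9.14, 7.99 and 9.73. In muscle homogenate fewer cells of a type and less RNA per cell cannot be told apart. What these markers contribute to the results was not tested.

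**Figure D1:**
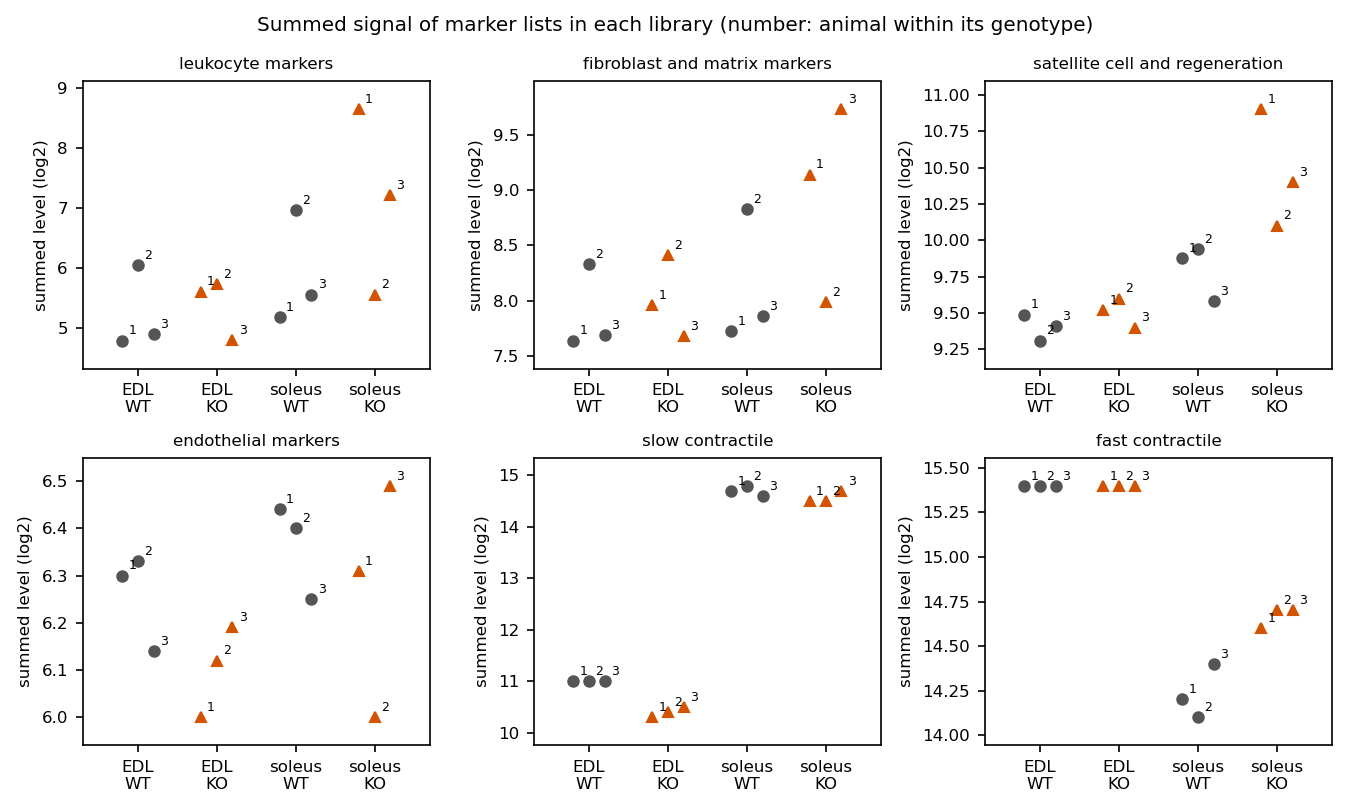
Summed signal (log2, vertical axis, scaled to each panel) of 6 gene lists in each of the 12 libraries, grouped by muscle and genotype, with WT for wild type and KO for knockout-labelled. Each point is 1 library and its number names the animal within its genotype: leukocyte markers reach 8.65 in the soleus of KO 1 and 5.55 in that of KO 2, and the slow contractile sum is 11.0 in wild-type EDL and 10.3 to 10.5 in knockout-labelled EDL.

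The receptor genes came first, since the labels name them as deleted. None of the 3 was called in the soleus minus EDL contrast, and none was called lower in either muscle. Esrrb (chromosome 12, 86361117 to 86521628 on GRCm38, plus strand), which encodes ERRbeta, was at 2.81, 2.57 and 2.52 in wild-type and 2.97, 3.02 and 2.76 in knockout-labelled soleus, and at 0.12, 0.18 and 0.23 against -0.05, -0.069 and 0.11 in EDL. In EDL each knockout-labelled library lay below each wild type, by -0.18 ± 0.21 on average, which was not called (adjusted p = 0.947). Its contrast was 0.47 ± 0.30 (SE, n = 3 libraries per group, limma adjusted p = 0.563). Esrrg (chromosome 1, 187608791 to 188214885 on GRCm38, plus strand), which encodes ERRgamma, was at 3.06, 3.36 and 3.52 in wild-type soleus and 4.22, 4.45 and 4.56 in knockout-labelled soleus, where the groups do not overlap and the rise of 1.09 ± 0.15 was called (adjusted p = 5e-05). In EDL it was at 1.42, 1.58 and 1.35 against 2.01, 1.74 and 2.05, a difference of 0.48 ± 0.15 that was not called, and the contrast of 0.61 ± 0.21 was not called either (adjusted p = 0.216). Esrra (chromosome 19, 6910977 to 6921813 on GRCm38, minus strand), the gene of ERRalpha, which this class keeps, differed by 0.074 ± 0.12 in soleus and -0.022 ± 0.12 in EDL, with a contrast of 0.097 ± 0.16. A gene value may include exons outside the floxed ones, but the counting method is not named and no exon was examined alone. These values therefore do not check the genotype labels, and the cause of the Esrrg rise was not tested.

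Across the genome the deletion changed many genes in soleus and few in EDL, yet few of those differences between muscles passed the test of the difference itself. In soleus 898 of 13375 genes were called (6.71%), 423 higher (3.16%) and 475 lower (3.55%). In EDL 29 of 13333 were called (0.218%), 8 higher (0.06%) and 21 lower (0.158%). The contrast between muscles called 28 of 13305 genes, 0.21% of those tested, by limma with Benjamini-Hochberg adjustment at 0.05. Of these, 7 were positive (0.0526%) and 21 negative (0.158%). At an unadjusted p under 0.05 there were 1579 genes, 755 positive and 824 negative, and the median over all genes was 0.0059. With the 2 muscles of an animal tied by a block the count was 105 (34 positive, 71 negative), and all 28 genes were among them. That block used 1 correlation of 0.13 for all genes and libraries. With 1 soleus minus EDL gap per animal, the other paired fit, no gene was called, with 1285 at an unadjusted p under 0.05. When the 3 libraries per group of this class alone set the spread, no gene was called by limma, with 1056 at an unadjusted p under 0.05.

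Single libraries decided the count. Without the soleus library of KO 1 it was 1, the gene Gmnn, and without that of KO 2 it was 521, which held all 28. The count was also more than 1.5 times smaller without EDL KO 1 (12 genes), EDL KO 2 (3), EDL KO 3 (5), EDL WT 1 (6), EDL WT 2 (14), EDL WT 3 (7), soleus WT 2 (16) or soleus WT 3 (3). The soleus count was 396 without soleus KO 1, 440 without soleus WT 3 and 2139 without soleus KO 2. The EDL count was 16 without EDL KO 2, 11 without EDL WT 2 and 19 without EDL WT 3. Among the 28 genes, the call held in 1 (Klhl7 and Mrpl14) to 12 (Gmnn) of the fits without 1 library.

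**Figure D2:**
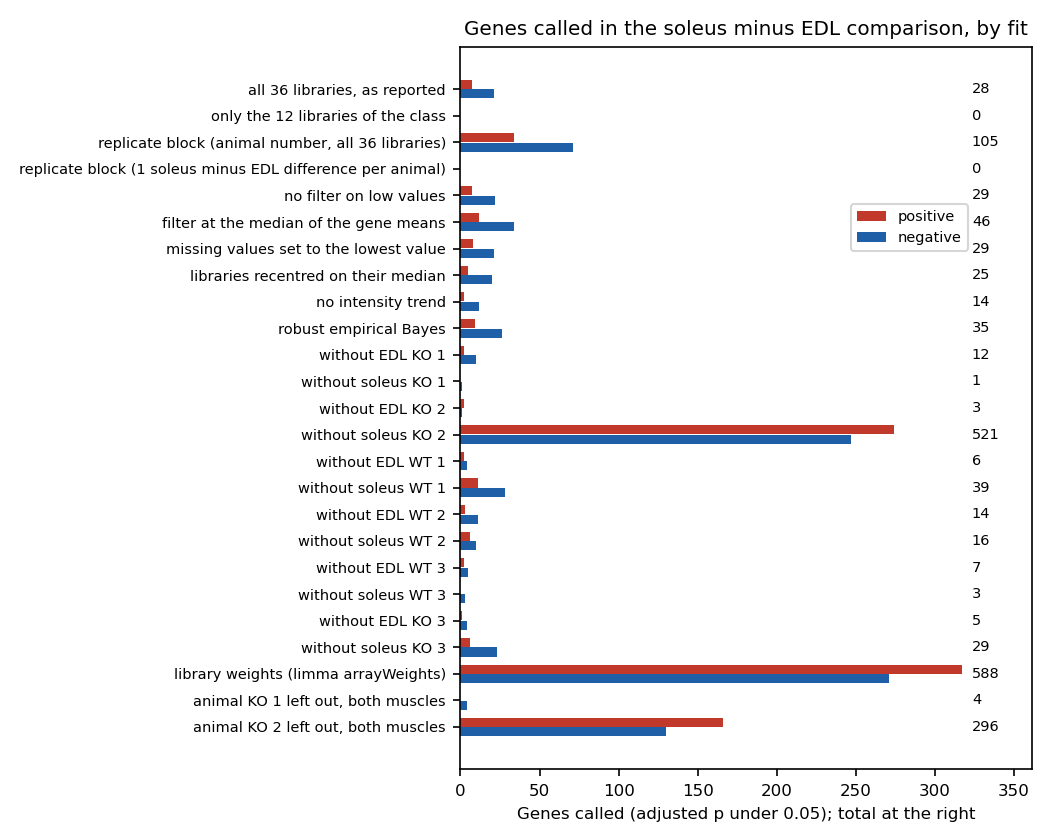
Number of genes called (horizontal axis, limma adjusted p under 0.05) in the soleus minus EDL contrast under each fit, positive in red and negative in blue, with the total at the right. The total is 28 as reported, 1 without the soleus library of KO 1 and 521 without that of KO 2.

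The 28 genes were sorted by the muscle in which each was called. In 20 the level fell in soleus and was not called in EDL, and in 6 it rose in soleus and was not called in EDL. The other 2 were called in EDL and not in soleus: Pcbd1, higher in EDL, and Ccl21b, lower in EDL. The soleus value was larger in size than the EDL value in 25 of 28, and in 20 the 2 values had opposite signs. Of the 27 genes with a value in all 12 libraries, each had per-animal gaps that did not overlap between the 3 knockout-labelled and the 3 wild-type mice, which was the case for 17.1% of all 12319 genes compared in this way. The calls, the sizes and signs of the 2 values and the gaps come from the same libraries. Selection on the difference between the 2 values favours opposite signs and separate gaps, so these counts are only a description of the called genes.

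**Figure D3:**
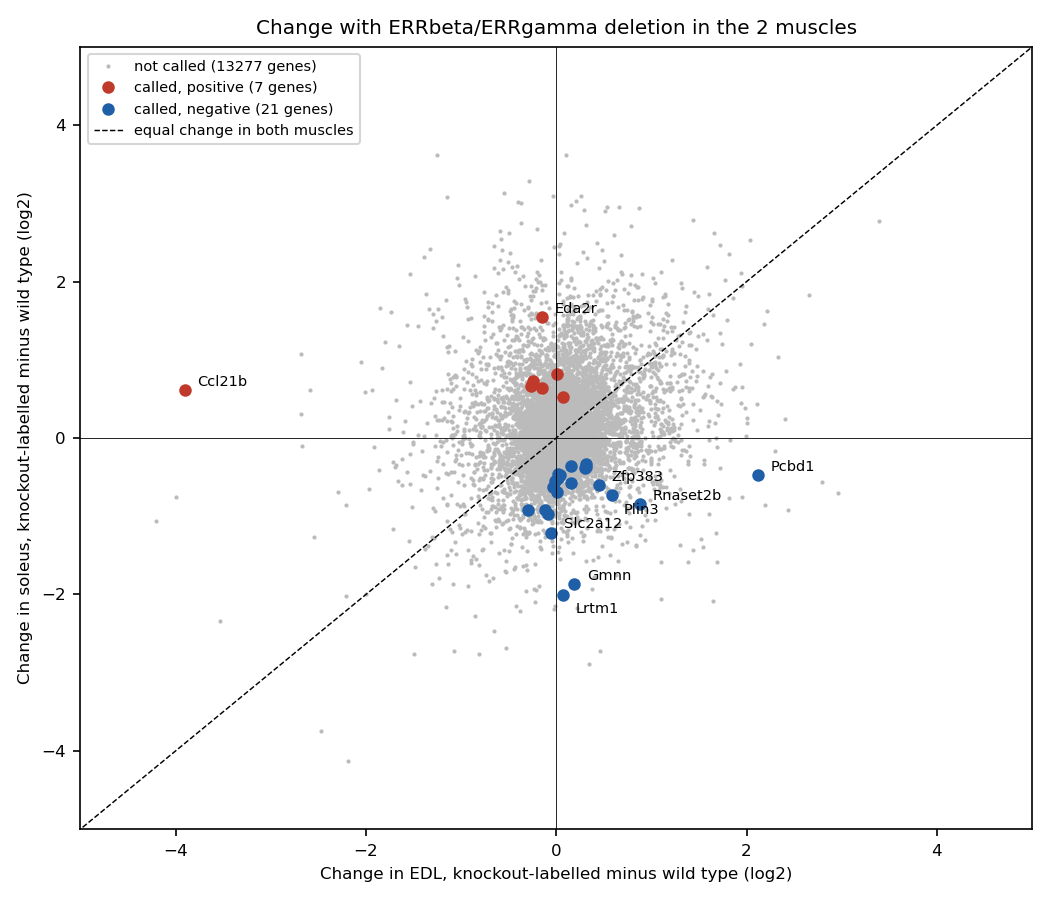
Change with deletion (knockout-labelled minus wild type, log2) in EDL on the horizontal axis and in soleus on the vertical axis, 1 point per gene tested, with the 28 called genes in colour and the dashed line marking equal change. The blue genes lie below the line, with Gmnn and Lrtm1 near -2 in soleus and near 0 in EDL, and Pcbd1 and Ccl21b are set apart by their EDL values.

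Among the negative genes, Gmnn (geminin, an inhibitor of the licensing of DNA replication; chromosome 13, 24751845 to 24761923 on GRCm38, minus strand) held its call most often. Its level was 2.98, 3.03 and 3.32 in wild-type soleus and 1.61, 0.89 and 1.23 in knockout-labelled soleus, and 1.66, 1.20 and 1.41 against 1.91, 1.32 and 1.61 in EDL. Wild-type soleus stood above the other 9 libraries, and knockout-labelled soleus fell to the EDL range or, in KO 2, below it. The gap between muscles was 1.32, 1.84 and 1.91 in the wild-type mice and -0.30, -0.42 and -0.38 in the knockout-labelled mice, a contrast of -2.06 ± 0.32 (adjusted p = 0.00602). The call held in all 12 fits without 1 library and in 22 of 24 alternatives, being lost in the fit of 12 libraries alone and in the test of 1 gap per animal, where no gene was called (1285 at an unadjusted p under 0.05). Lrtm1, a leucine-rich repeat membrane protein (chromosome 14, 29018208 to 29033645 on GRCm38, plus strand), was at 2.71, 3.25 and 3.39 in wild-type and 0.29, 1.69 and 1.36 in knockout-labelled soleus, and at 3.49, 3.89 and 3.80 against 3.57, 3.88 and 3.94 in EDL. Soleus of KO 1 was the lowest, the groups did not overlap in soleus, and the EDL groups did. The contrast was -2.08 ± 0.41 (adjusted p = 0.0319), and the call held in 5 of 12 fits without 1 library.

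The next 6 negative genes were put together after they had been called, by what each is known to do, and are no test of a theme. Plin3, a perilipin that coats lipid droplets, was at 4.10, 4.44 and 4.95 in wild-type soleus and 3.77, 3.42 and 4.11 in knockout-labelled soleus, while EDL was at 3.23, 2.98 and 3.54 against 3.86, 3.67 and 3.97, a difference that was not called. The groups met in soleus and stood apart in EDL, and the gaps were 0.87, 1.46 and 1.40 against -0.095, -0.25 and 0.14. The contrast was -1.31 ± 0.29 (adjusted p = 0.0462). Nadk2, the mitochondrial NAD kinase, was at 4.07, 3.89 and 3.98 in wild-type and 2.71, 3.37 and 2.93 in knockout-labelled soleus. KO 2 was closest to the wild types, the EDL groups overlapped (4.19, 3.79 and 3.80 against 3.74, 3.83 and 3.96), and the contrast was -0.89 ± 0.18. Hccs, which attaches haem to cytochrome c, was at 4.64, 4.60 and 4.69 in wild-type and 3.97, 4.19 and 4.12 in knockout-labelled soleus and between 3.76 and 3.92 in every EDL library, with a contrast of -0.53 ± 0.11. Mrpl14, a protein of the large mitochondrial ribosomal subunit, was at 5.19, 5.01 and 5.14 against 4.19, 4.18 and 4.21 in soleus and at 4.13, 4.17 and 4.10 against 3.76, 3.89 and 3.84 in EDL. The groups did not overlap in either muscle, although the EDL difference of -0.30 ± 0.096 was not called (adjusted p = 0.321), and the contrast was -0.62 ± 0.14. Slc2a12, a sugar transporter of the facilitative glucose transporter family, was at 1.17, 1.64 and 1.59 against -0.15, 0.61 and 0.32 in soleus with EDL between 1.26 and 1.50 throughout, and its contrast was -1.16 ± 0.25. Pex7, the receptor that brings proteins with the second type of targeting signal into peroxisomes, had gaps of 0.28, 0.19 and 0.41 in wild types and -0.54, -0.51 and -0.14 in knockout-labelled mice. Its values fell in soleus by 0.38 and were higher in EDL by 0.31 ± 0.089, the latter not called, and the contrast was -0.69 ± 0.13.

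The other negative genes have varied roles. The zinc-finger genes Zfp383 (-1.04 ± 0.20), Gzf1 (-0.70 ± 0.14), Zfp68 (-0.64 ± 0.12) and Zfp638 (-0.52 ± 0.12) fell in soleus and were not called in EDL. Their EDL values were 0.45 ± 0.14, 0.0093 ± 0.098, 0.31 ± 0.083 and 0.16 ± 0.082. A higher EDL value is thus part of the contrast, least so for Gzf1. Gzf1 was at 4.12, 4.19 and 4.27 in wild-type soleus and at 3.45, 3.49 and 3.60 in knockout-labelled soleus, the latter still above all 6 EDL libraries. Zfp68 was at 3.07, 3.02 and 2.90 against 2.65, 2.74 and 2.62 in soleus and 2.70, 2.71 and 2.79 against 2.92, 3.11 and 3.10 in EDL, so that the higher muscle of wild types was the lower one of knockout-labelled mice. Nup133, a component of the nuclear pore, was at 2.17, 2.47 and 2.15 against 1.28, 1.53 and 1.23 in soleus and between 1.30 and 1.70 in EDL (-0.79 ± 0.17). Bzw2, a translation regulator (-0.58 ± 0.11), Ppil4, a peptidyl-prolyl isomerase (-0.69 ± 0.14), and Phpt1, a histidine phosphatase (-0.53 ± 0.11), fell in soleus with EDL not called. So did Reep5, which shapes the endoplasmic reticulum (-0.475 ± 0.10), Klhl7, an adaptor of a ubiquitin ligase (-0.52 ± 0.11), and Mospd1, a membrane protein with a major sperm protein domain (-0.73 ± 0.13). For Ppil4 the EDL value was 0.31 ± 0.10, beside -0.38 ± 0.10 in soleus. Rnaset2b, a lysosomal ribonuclease, had a contrast of -1.73 ± 0.34, from gaps of 1.16, 0.63 and 1.13 in wild types and -0.51, -1.37 and -0.37 in knockout-labelled mice. The change was -0.84 ± 0.24 in soleus and 0.88 ± 0.24 in EDL, the latter not called. Rnaset2b has a near-identical neighbour, Rnaset2a, between which counting could split reads, so its value is uncertain.

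The 7 positive genes included 2 receptors of the tumour necrosis factor family. Eda2r, the receptor for the A2 form of ectodysplasin (chromosome X, 97333840 to 97377216 on GRCm38, minus strand), was at 1.94, 1.86 and 1.43 in wild-type soleus and 3.59, 2.85 and 3.44 in knockout-labelled soleus. In EDL it was at 1.69, 1.42 and 1.90 against 1.43, 1.67 and 1.46, so knockout-labelled soleus lay above the other 9 libraries, and the contrast was 1.70 ± 0.36 (adjusted p = 0.0402). The call of Eda2r held in 2 of 12 fits without 1 library. Ltbr, the lymphotoxin beta receptor (chromosome 6, 125306571 to 125313885 on GRCm38, minus strand), was at 2.66, 2.83 and 2.66 against 3.73, 3.07 and 3.35 in soleus and 2.72, 2.69 and 2.47 against 2.28, 2.47 and 2.33 in EDL. The soleus of KO 1 was the highest, the groups did not overlap in soleus, and the contrast was 0.94 ± 0.16 (adjusted p = 0.0159). The call held in 10 of 12 fits without 1 library. Anxa4, a calcium-dependent phospholipid binding annexin, was at 3.65, 3.56 and 3.45 in wild-type and 4.46, 4.19 and 4.22 in knockout-labelled soleus, and at 1.63, 1.44 and 1.50 against 1.10, 1.49 and 1.27 in EDL. It was the higher in soleus of all mice, by 2.02, 2.12 and 1.95 in wild types and 3.36, 2.70 and 2.95 in knockout-labelled mice (0.97 ± 0.21). Bop1, which matures ribosomal RNA, went from 2.56, 2.28 and 2.23 to 3.29, 3.12 and 3.12 in soleus and was not called in EDL, with overlapping groups (0.81 ± 0.17). The gene Scx, described below, lies within the span of Bop1 on the opposite strand. Whether reads were counted by strand is not stated, so the values of Bop1 and Scx may not be independent. Tbc1d10b, an activator of Rab GTPase hydrolysis, went from 2.60, 2.36 and 2.30 to 3.23, 2.84 and 3.12 in soleus (0.80 ± 0.14), and Mllt3, a subunit of the super elongation complex, from 3.63, 3.45 and 3.41 to 3.99, 4.08 and 3.99 (0.46 ± 0.097). What the leukocyte level contributes to these values was not tested.

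The 2 genes called on the EDL side were low. Pcbd1, a pterin dehydratase that recycles tetrahydrobiopterin, was at -2.97, -3.07 and -3.02 in wild-type EDL and -0.95, -0.71 and -1.02 in knockout-labelled EDL, whereas soleus was at -0.79, 0.44 and -0.97 against -1.53, -0.44 and -0.77. Wild-type EDL lay below the other 9 libraries, and the contrast was -2.60 ± 0.57 (adjusted p = 0.0462). Ccl21b, a chemokine gene with near-identical copies, had a value in 8 of 12 libraries and in 1 of 3 knockout-labelled EDL libraries, at -3.00 against 0.87 and 0.93 in the 2 wild-type EDL libraries with a value. Its contrast of 4.52 ± 0.93 rests on that 1 library and is uncertain.

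**Figure D4:**
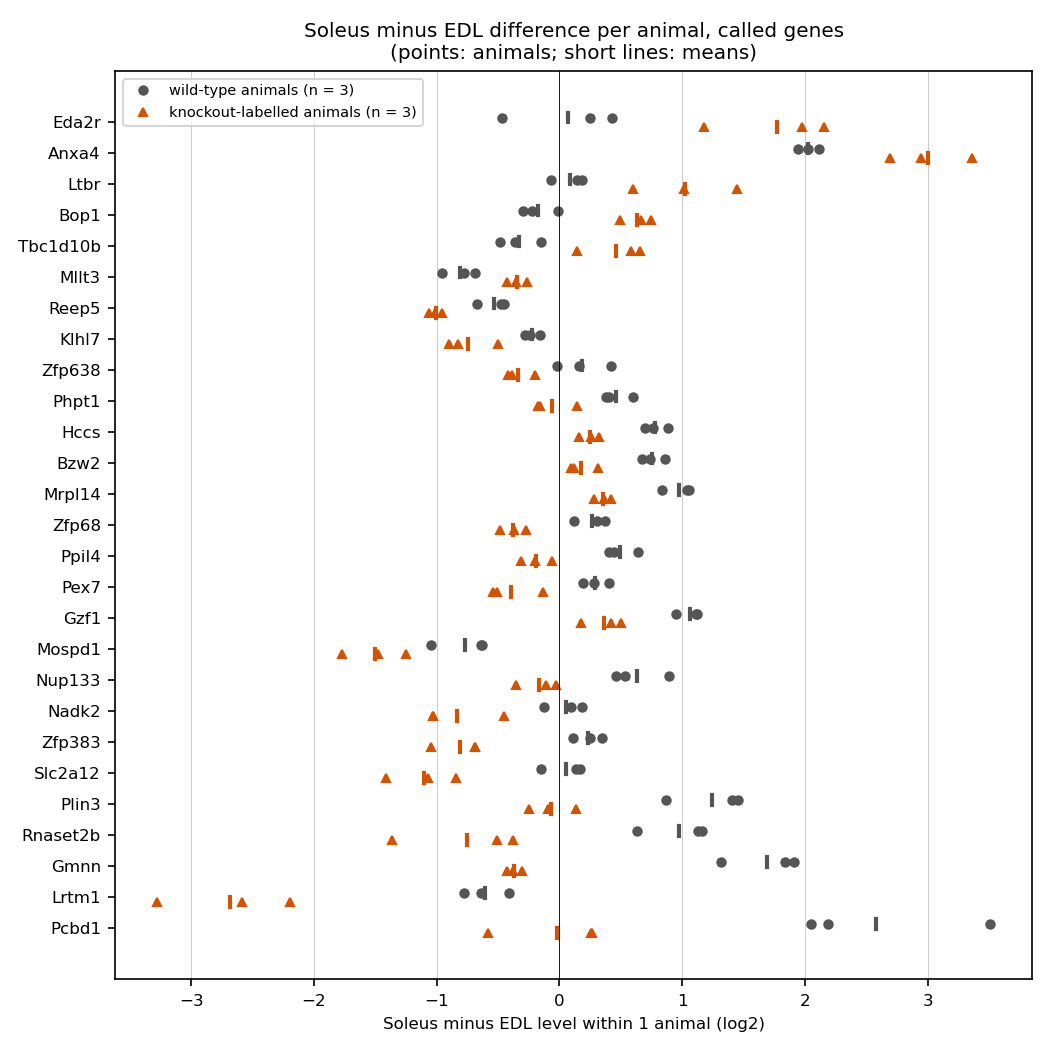
Soleus minus EDL level within each mouse (horizontal axis, log2) for the 27 called genes with a value in all 12 libraries, ordered by their contrast. Circles are the 3 wild-type and triangles the 3 knockout-labelled mice, and short lines are means: Gmnn runs from 1.32 to 1.91 in wild types and from -0.42 to -0.30 in knockout-labelled mice, and no gene has overlapping groups.

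The promoters of the called genes were searched for the core ERR half-site, AAGGTCA, on either strand in the 250 bases before the start given by RefSeq (GRCm38.p6). An entry was found for 23 of 28 genes. The letters occurred in 1 of these 23 (4.35%), against 3.57% of 10177 genes tested with an entry and 4.08% of all 32851 promoters. Genes that fell in soleus held them in 4.31% of 371 cases and genes that rose in 4.38% of 320. The extended form TCAAGGTCA, whose letters include the shorter one, was in 0.387% of all promoters and in none of the 23. The 2 promoters below are shown because Mospd1 holds the 1 match and Ltbr was the called gene with an entry that kept its call most often. Capitals mark the match, the strand is that of the gene (minus for both), and the spans are chrX:53370560-53370809 for Mospd1 and chr6:125313886-125314135 for Ltbr.
Mospd1: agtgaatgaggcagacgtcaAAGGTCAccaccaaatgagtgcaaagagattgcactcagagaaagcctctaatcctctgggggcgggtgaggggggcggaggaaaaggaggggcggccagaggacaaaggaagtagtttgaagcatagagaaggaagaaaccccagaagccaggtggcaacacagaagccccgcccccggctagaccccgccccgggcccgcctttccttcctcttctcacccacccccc
Ltbr: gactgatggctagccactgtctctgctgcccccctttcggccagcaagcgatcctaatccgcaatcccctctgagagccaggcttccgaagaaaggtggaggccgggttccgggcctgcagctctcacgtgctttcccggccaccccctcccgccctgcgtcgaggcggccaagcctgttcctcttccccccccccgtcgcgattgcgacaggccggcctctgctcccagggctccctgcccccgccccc
The match lies near the distal end of the Mospd1 window. A match is a run of letters and no measured binding site.

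Fatty acid oxidation, the pathway best known for ERRs, leaned to the same side throughout without passing the test in any gene. All 28 genes of fatty acid uptake and oxidation had a contrast below 0, with a median of -0.463 against 0.0059 for all genes. None of the 28 was called. At an unadjusted p under 0.05 there were 14, and 824 of all 13305 genes had that with a negative value. In soleus 25 of the 28 were called lower, where 3.55% of all genes were, and in EDL 1 was, where 0.158% were. The median change of the list was -0.728 in soleus and -0.3 in EDL, against 0.0527 and 0.034 over all genes. The list thus leaned lower in both muscles, and further in soleus. The gap of the median list gene was 0.965, 0.931 and 1.07 in the wild-type mice and 0.358, 0.762 and 0.529 in the knockout-labelled mice, so that soleus kept its lead over EDL and the lead was smaller in each knockout-labelled mouse. Without the soleus library of KO 2, 6 were called lower, of 247 genes called lower in all. Without that of KO 1 none was, with 27 of 28 values below 0 and a median of -0.33. Without that of KO 3 the count was 1. Acot13, a mitochondrial acyl-CoA thioesterase, had the lowest p. It was at 6.77, 6.76 and 6.85 in wild-type soleus and 6.05, 6.50 and 6.45 in knockout-labelled soleus, and at 6.27, 6.44 and 6.37 against 6.47, 6.44 and 6.55 in EDL, where the groups met at 6.44. The contrast was -0.59 ± 0.13 (adjusted p = 0.0534, and 0.0224 with the animal block, where it was called). Without the soleus library of KO 1 the limma adjusted p was 0.164. The test of 1 gap per animal, the other paired fit, called no gene, and this holds for every block value given below.

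The members differed in how far the 2 muscles parted. The examples in this and the next paragraphs that lie outside the rule for named genes were chosen after their values were seen. Enzymes of the beta-oxidation steps lay on the negative side: Acadm, the medium-chain acyl-CoA dehydrogenase, had a contrast of -0.59 ± 0.18, Hadhb, the thiolase subunit of the trifunctional protein, -0.59 ± 0.20, and Decr1, which handles unsaturated acyl groups, -0.60 ± 0.18. Cpt2, which completes carnitine-borne import, had -0.56 ± 0.18. Lpl, the lipase that frees fatty acids from lipoproteins, had a value near 0. It was at 9.31, 8.93 and 9.14 in wild-type and 7.75, 8.10 and 8.06 in knockout-labelled soleus, and at 7.67, 6.93 and 7.03 against 6.13, 5.96 and 6.20 in EDL. The groups stood apart in both muscles, the falls of -1.16 ± 0.19 and -1.11 ± 0.19 were both called, and the contrast was -0.047 ± 0.26.

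Breakdown of branched-chain amino acids and ketones leaned the same way. Of 19 genes, 18 had a value below 0 (median -0.373) and none was called. On the negative side 11 had an unadjusted p under 0.05, as had 824 of all 13305 genes. In soleus 16 of 19 were called lower, where 3.55% of all genes were, and in EDL none was, where 0.158% were. The median change of the list was -0.544 in soleus and -0.152 in EDL. The gap of the median list gene was 0.109, 0.044 and 0.169 in wild types, so that the muscles were nearly level, and -0.548, -0.071 and -0.258 in knockout-labelled mice, where soleus was the lower. Bcat2, the mitochondrial branched-chain aminotransferase, was at 4.01, 3.79 and 3.96 in wild-type and 3.04, 3.26 and 3.19 in knockout-labelled soleus, and at 4.17, 4.07 and 3.96 against 3.85, 4.01 and 4.03 in EDL. The soleus groups were apart and the EDL groups overlapped, with a contrast of -0.65 ± 0.16 (adjusted p = 0.0739, and 0.0323 with the animal block). Without the soleus library of KO 1 the limma adjusted p of Bcat2 was 0.187. Aldh6a1, of valine breakdown, had -0.68 ± 0.19, and Acadsb, of isoleucine breakdown, -0.55 ± 0.15. The value above 0 was that of Bdh1, a ketone body dehydrogenase, at 0.72 ± 0.45. Without the soleus library of KO 2, 5 members were called lower (median -0.484), of 247 genes called lower in all, and without that of KO 1 none (median -0.224).

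The TCA cycle and the respiratory chain parted little between muscles. Of 23 TCA genes 22 lay below 0, but the median was -0.096 and none was called. Without the soleus library of KO 1, 14 of 23 lay below 0 (median -0.0522), and without that of KO 2 the median was -0.203 with 2 called lower. The median was -0.046 for 36 genes of complex I, -0.085 for 14 of complexes II and III, -0.078 for 13 of complex IV and -0.12 for 16 of ATP synthase, with none called in the contrast and none in EDL. Without 1 library these 4 medians ran from -0.146 to -0.0154, and without the soleus library of KO 2, 1 gene of complexes II and III was called lower. In soleus, where 3.55% of all genes fell, 3 of complexes II and III, 1 of complex IV, 3 of ATP synthase and 6 TCA genes fell, and none of complex I. Suclg2, the GDP-forming subunit of succinyl-CoA ligase, was at 4.84, 4.75 and 4.74 against 3.99, 4.42 and 4.23 in soleus, apart, and at 4.26, 4.46 and 4.27 against 4.10, 4.21 and 4.38 in EDL, overlapping (-0.46 ± 0.14). Sdhb, the iron-sulphur subunit of complex II, had -0.39 ± 0.11, with gaps of 0.31, 0.26 and 0.34 in wild types and -0.28, 0.005 and -0.0036 in knockout-labelled mice. Ndufb8, of complex I, had -0.15 ± 0.091, Atp5h, of the ATP synthase stalk, -0.29 ± 0.10, and Cox6c, of complex IV, -0.25 ± 0.16. Mitochondrial ribosome genes had a median of -0.127 over 56 members, 42 below 0, and Mrpl14 was the 1 called. Its call held in 1 of 12 fits without 1 library. Of 31 genes of import, dynamics and chaperones none was called in the contrast or in EDL (median -0.0677), and 7 fell in soleus, among them the fusion protein Opa1 and the adenine nucleotide carrier Slc25a4. Mfn1, a mitofusin of the outer membrane, also fell there, and its contrast was -0.46 ± 0.12 (adjusted p = 0.0444 with the animal block). With soleus KO 2 left out, 4 of the 31 were called lower in the contrast, and without that of KO 3 the median was -0.0221.

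Idh2 and Nnt, which make mitochondrial NADPH, fell in both muscles. Idh2 was at 8.65, 8.67 and 8.35 in wild-type and 6.99, 7.60 and 7.47 in knockout-labelled soleus, and at 6.0, 6.14 and 5.48 against 4.53, 4.79 and 5.0 in EDL, apart in both. The changes were -1.20 ± 0.20 and -1.10 ± 0.20, and the contrast -0.10 ± 0.28. Nnt changed by -1.20 ± 0.16 in soleus and -0.96 ± 0.16 in EDL, with a contrast of -0.24 ± 0.23. In all, 12 genes were called in both muscles, each in the same direction in both, and none of them in the contrast. Besides Idh2, Nnt and Lpl, those that fell included Acss2, which makes acetyl-CoA from acetate, the amylase Amy1, the regulator Dach2, Exoc2 of the exocyst, the magnesium transporter Slc41a1, the organic anion transporter Slco3a1 and the DNA glycosylase Ung. Car3, a carbonic anhydrase of slow muscle, rose by 1.21 ± 0.28 in soleus and 1.74 ± 0.28 in EDL. A contrast that misses the threshold does not show that the 2 muscles changed alike.

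**Figure D5:**
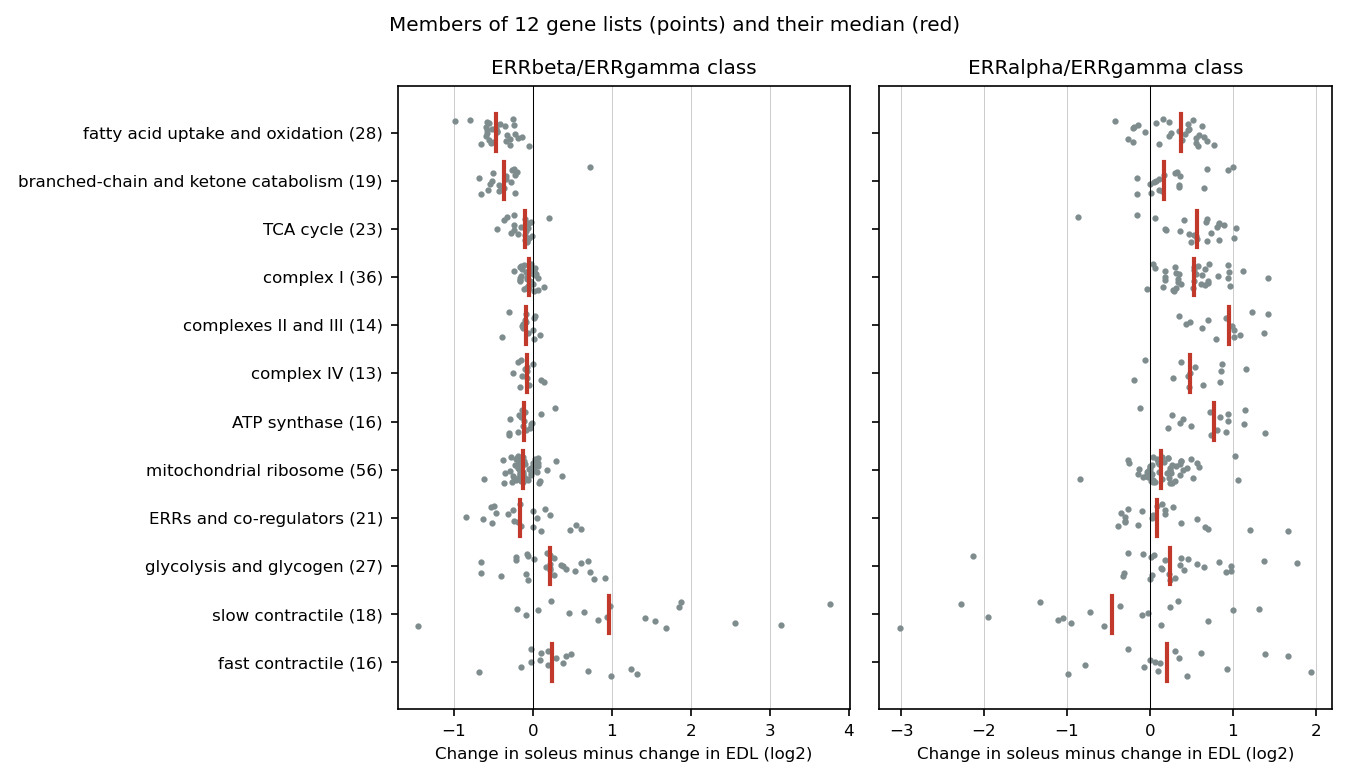
Contrast of each member (points; horizontal axis, change in soleus minus change in EDL, log2) of 12 gene lists with its median (red), for the ERRbeta/ERRgamma class at the left and the ERRalpha/ERRgamma class at the right, with the number of members in brackets and different scales. All 28 points of fatty acid uptake and oxidation lie below 0 at the left, and the median of complexes II and III is -0.085 at the left and 0.955 at the right.

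Regulators of the programme were examined from a list of 21 ERR and partner genes. None was called in the contrast, the median was -0.167, and 13 values lay below 0. In soleus 1 rose, Esrrg, and 4 fell, where 3.16% and 3.55% of all genes did. Those that fell were Perm1, a muscle factor induced by PGC-1 and ERRs (-0.73 ± 0.18), and Ppara, the fatty acid receptor (-0.75 ± 0.17). The others were the corepressor Ncor1 (-0.39 ± 0.10) and Tfam, which packages mitochondrial DNA (-0.43 ± 0.1). None of the 4 was called in EDL. Tfam was at 3.81, 3.66 and 3.91 against 3.35, 3.34 and 3.40 in soleus and 3.77, 3.71 and 3.63 against 3.89, 3.68 and 3.68 in EDL. The soleus groups were apart and the EDL groups overlapped, and the contrast was -0.47 ± 0.14 (adjusted p = 0.15). Ppargc1a, the gene of PGC-1alpha, had a contrast of 0.0057 ± 0.63.

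Slow contractile genes leaned the other way. In EDL 2 of 18 fell, Myl2 and Myl3, where 0.158% of all genes did, and in soleus 1 rose, the light chain Myl6b (1.39 ± 0.30, contrast 1.54 ± 0.43), where 3.16% did. Of 18 genes 15 had a value above 0, with a median of 0.958, and none was called. The gap of the median list gene was 4.02, 5.62 and 4.26 in wild types and 6.00, 6.08 and 6.59 in knockout-labelled mice. Myl2, a slow myosin light chain, was at 4.86, 5.41 and 4.92 in wild-type EDL and 2.20, 0.18 and 0.18 in knockout-labelled EDL, a called fall of -4.21 ± 0.63. In soleus it was at 11.51, 12.21 and 11.15 against 10.17, 10.77 and 10.74, also apart but not called (-1.06 ± 0.63), and the contrast was 3.15 ± 0.89 (adjusted p = 0.13). Myl3, the other slow light chain, fell in EDL by 2.67 from 3.80, 4.75 and 4.50 to 2.85, 1.23 and 0.96 and stayed between 12.5 and 12.8 in soleus (2.56 ± 0.79). Csrp3, a stretch-responsive Z-disc protein, was at 8.57, 7.93 and 8.07 against 10.82, 8.17 and 8.81 in soleus and 4.92, 4.54 and 5.78 against 2.96, 2.09 and 2.14 in EDL. KO 1 was the highest soleus, the soleus groups overlapped, every knockout-labelled EDL lay below every wild-type EDL, and the contrast was 3.76 ± 0.94 (adjusted p = 0.0793, and 0.0343 with the animal block). Without the soleus library of KO 1 the limma adjusted p of Csrp3 was 0.241. Myh7 itself had 1.69 ± 1.33.

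Fast light chains rose in soleus. Of 16 genes, 2 rose there, where 3.16% of all genes did. In the contrast 12 lay above 0 (median 0.24) and none was called. The median was 0.0092 without the soleus library of WT 2, 0.0359 with 7 of 16 below 0 and 1 called higher without that of KO 2, and 0.447 without that of KO 1. Myl1, the fast essential light chain, was at 10.69, 10.88 and 10.98 in wild-type soleus and 12.23, 12.06 and 12.36 in knockout-labelled soleus, and between 11.7 and 12.2 in EDL. Knockout-labelled soleus overlapped the EDL range, the gaps were -0.99, -1.30 and -1.07 in wild types and 0.041, -0.0019 and 0.31 in knockout-labelled mice, and the contrast was 1.24 ± 0.30 (adjusted p = 0.0759, and 0.0352 with the animal block). Without the soleus library of KO 1 the limma adjusted p of Myl1 was 0.154. Mylpf, the fast regulatory light chain, rose in soleus by 0.80 ± 0.18 (0.70 ± 0.26). Myh2, the myosin of fast oxidative fibres, fell in EDL by 1.97 (1.32 ± 0.49), and Myh4, of the fastest fibres, had -0.69 ± 1.52. Of 21 fibre-type regulators none was called in the contrast (median -0.0656, and 0.065 without the soleus library of KO 1), with the lowest p at Lmcd1, a cofactor of calcineurin signalling (1.19 ± 0.38). In the 10 general muscle markers the lowest p was that of Tcap, a titin cap protein, at -0.79 ± 0.21 (adjusted p = 0.0928, and 0.0387 with the animal block), and Acta1 had -0.0017 ± 0.23.

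Fibroblast, leukocyte and regeneration lists had medians above 0, with a wide spread between knockout-labelled soleus libraries. Fibroblast and matrix markers had a median contrast of 1.03 with 20 of 22 above 0 and none called. The median was 0.626 with 5 below 0 without the soleus library of KO 3, and 1.55 without that of KO 2. In soleus 3 of 22 rose, where 3.16% of all genes did, and the same list summed to 9.14, 7.99 and 9.73 in knockout-labelled soleus. Scx, a tendon transcription factor, was at 1.40, 1.83 and 1.61 against 4.16, 3.03 and 3.93 in soleus and 0.77, 0.45 and -0.21 against 1.30, 1.20 and 1.20 in EDL. Both muscles were apart, the soleus rise of 2.10 ± 0.25 was called and the EDL difference of 0.90 ± 0.25 was not, and the contrast was 1.20 ± 0.35. The overlap of Scx with Bop1, given above, may bear on these values. Postn, a matricellular protein, was at 1.95, 4.17 and 0.91 against 5.33, 2.73 and 6.82 in soleus, overlapping, with 3.11 ± 1.01. Ankrd1, a stretch-induced ankyrin repeat protein from the denervation and atrophy list (24 genes, median 0.052), was at 3.15, 3.31 and 2.20 against 7.91, 3.95 and 5.81 in soleus and 4.42, 4.20 and 4.24 against 4.41, 4.24 and 3.09 in EDL. KO 1 was by far the highest and KO 2 the closest to wild type (3.37 ± 0.79, adjusted p = 0.0606, and 0.0274 with the animal block). Itga7, the laminin-binding integrin of muscle fibres, followed that order in soleus, at 3.94, 3.68 and 3.53 in wild types against 5.54, 4.28 and 4.53, with a contrast of 1.05 ± 0.25 (adjusted p = 0.0739, and 0.0352 with the animal block). Of the satellite cell and regeneration genes 4 rose in soleus, where 3.16% of all genes did, and of 13 tested in the contrast none was called (median 0.40, and 0.605 with 2 called without the soleus library of KO 2). Myh3, embryonic myosin, was at 3.25, 3.83 and 1.99 against 3.95, 5.26 and 6.41 in soleus, apart, and its contrast was 2.65 ± 0.76. Leukocyte markers had a median of 0.915 with 13 of 14 above 0, none called in any of the 3 comparisons, and a median of 0.201 without the soleus library of KO 1 and 1.80 without that of KO 2. With soleus KO 2 left out, 6 fibroblast and matrix genes were called higher.

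Glucose and redox genes were mixed. Of 27 glycolysis and glycogen genes none was called in the contrast, 18 lay above 0 and the median was 0.214, and in soleus 6 rose and 2 fell, where 3.16% and 3.55% of all genes did. Without the soleus library of KO 2 the median was 0.128, with 1 called higher. Hk1, a hexokinase, rose in soleus by 0.81 ± 0.21 (0.91 ± 0.30). Slc16a1, a carrier of lactate and pyruvate, was at 5.23, 5.24 and 5.25 in wild-type and 4.57, 4.60 and 4.52 in knockout-labelled soleus, 2 tight and separate groups. In EDL it was at 3.87, 3.82 and 3.88 against 4.31, 3.54 and 3.65, overlapping, and the contrast was -0.66 ± 0.20 (adjusted p = 0.165). Ldhb, the lactate dehydrogenase of oxidative muscle, fell in EDL by 0.84 and had 0.60 ± 0.21. Of 22 antioxidant genes none was called in the contrast (median -0.0153, and 0.0301 without the soleus library of KO 2). In soleus 3 of them rose, such as Gclc of glutathione synthesis (0.62 ± 0.16), and 4 fell, such as catalase, Cat (-0.69 ± 0.16), and Gstk1, a mitochondrial and peroxisomal glutathione transferase (-0.69 ± 0.12, contrast -0.54 ± 0.16). In the stress list none of 17 was called in the contrast (median 0.163, and -0.0596 without the soleus library of KO 1), and in soleus Mthfd2 of mitochondrial folate metabolism rose and Cth, which makes cysteine, fell (contrast -1.12 ± 0.40). Denervation and atrophy genes (24), angiogenic genes (18), cytosolic ribosome genes (48), endothelial (12), smooth muscle (11), fat (9), Schwann cell (9) and red blood cell markers (5) held no gene called in the contrast, with medians between -0.101 and 0.111. Single libraries set the sign of several: without 1 library the fat cell median ran from -0.65 to 0.82, that of smooth muscle from -0.113 to 0.363, and that of cytosolic ribosome genes from -0.121 without soleus KO 1 to 0.141 without soleus KO 2. In soleus the growth factor gene Vegfb and Epas1 of the hypoxia response fell in the angiogenic list, Chrna1 of the acetylcholine receptor fell and Ankrd1 rose in the denervation list, and Cspg4 rose among smooth muscle and pericyte markers. Their lowest p values outside Ankrd1 were at Angpt1 (-0.73 ± 0.21), Rps24 (-0.33 ± 0.15), Kdr (-0.33 ± 0.24), Cspg4 (1.23 ± 0.42), Retn (2.99 ± 1.05), Sox10 (1.01 ± 0.95) and Hba-a2 (-0.074 ± 0.90). In the leukocyte list it was at Cd14 (1.59 ± 1.05).

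Genes that separate the muscles were then examined as such. They were sorted into soleus-high and EDL-high with the 12 wild-type libraries of the other 2 deletion classes, which do not enter the contrast's value but share the estimate of the spread behind its calls. There 6382 of 13302 genes were called (48%), 3549 higher in soleus (26.7%) and 2833 lower (21.3%). The median contrast was 0.020 over 3539 soleus-high genes, -0.034 over 2827 EDL-high genes and 0.022 over 6869 genes called in neither direction. Among the 21 negative calls 9 were soleus-high, 6 EDL-high and 6 neither, and among the 7 positive calls 2, 2 and 3. The median of EDL-high genes turned to 0.0060 without the soleus library of KO 1 and was -0.071 without that of KO 2.

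A contrast of the same form in the ERRalpha/ERRgamma class, which shares no library with this one, had other values in the respiratory chain. By the animal numbers, most soleus and EDL libraries of that class come from different mice, whereas here each mouse gave both muscles. The ERRalpha/ERRgamma contrast called 276 of 13342 genes (2.07%), 200 positive (1.5%) and 76 negative (0.57%). The difference between the classes was tested in the same fit and called 163 of 13269 genes (1.23%), 16 with the ERRbeta/ERRgamma value higher (0.121%) and 147 with it lower (1.11%). Lower in this sense were 18 of 36 genes of complex I, 11 of 14 of complexes II and III, 7 of 13 of complex IV, 12 of 16 of ATP synthase and 11 of 23 of the TCA cycle, with list medians of the difference between -0.576 and -0.95. Sdhb had -0.39 ± 0.11 here and 1.02 ± 0.11 there, a difference of -1.41 ± 0.16 (adjusted p = 2.97e-06). Ndufb8 had -0.15 ± 0.091 against 0.83 ± 0.091 (-0.98 ± 0.13, adjusted p = 2.9e-05), and Atp5h -0.29 ± 0.10 against 0.39 ± 0.10 (-0.69 ± 0.14). Slc16a1 had opposite signs, -0.66 ± 0.20 and 0.84 ± 0.20 (-1.49 ± 0.29, adjusted p = 0.00302). Of the fatty acid genes 4 of 28 were called lower, among them Acot13 (-0.81 ± 0.19), and of the branched-chain and ketone genes 2 of 19. Csrp3 was on the other side, at 3.76 ± 0.94 against -2.28 ± 0.94, a difference of 6.04 ± 1.33 (adjusted p = 0.0135). Esrra differed by -1.57 ± 0.23, from 1.66 ± 0.16 in the class that names it as deleted. Of the 28 called genes 3 differed between the classes: Hccs (-0.75 ± 0.16), Ppil4 (-0.78 ± 0.20) and Tbc1d10b (0.78 ± 0.20). Lrtm1 had -2.08 ± 0.41 here and -2.19 ± 0.41 there and was called in both, as were Bzw2, Klhl7, Mospd1 and Mrpl14. The number of differences was 108 without EDL WT 1 and 261 without soleus KO 2.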

How the data were processed

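The sources used here do not name an aligner or a counting method. Per the labels' protocols, libraries were made from 400 ng of RNA with 10 PCR cycles and a directional kit, and Partek 6.6 and the builds GRCm38.p6 and mm10 are listed in the submitters' processing notes. The authors deposited 1 table of log2 values for 36 libraries, quantile normalized per the name they gave it; the unit before the log is not stated. The log base was read from the spacing of low values. Of 45802 rows 27904 were empty and 27 had names turned into dates, and these were left out. Genes with a mean at or above the 25th percentile (-5.24) were kept, 13404 in all. Depth is unknown, so no counting interval can be given.

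limma 3.58.1 in R 4.3.3 was fitted with 12 group means over all 36 libraries, with an intensity trend and Benjamini-Hochberg adjustment over all genes tested, and called at 0.05. Tests are two-sided and errors are standard errors unless said otherwise. Columns were mapped to groups by the marks in their names. For 6 EDL columns read as ERRalpha the name lacks that letter, and the class was taken from the soleus column with the same animal number, a reading that the labels do not settle; they bear on the shared spread and on the sort into soleus-high and EDL-high genes. The number opening a column name pairs the muscles of an animal; same-animal correlations of deviations were 0.248, 0.324 and 0.171 in wild types and 0.177, -0.0681 and 0.0494 in knockout-labelled mice (11914 genes). For KO 2 and KO 3 the correlation with another mouse of the genotype was higher, at 0.168 and 0.098, so the pairing rests on the animal numbers and not on these values. Named genes were the receptors, up to 10 called genes per sign (at or above the median level, with all 12 values and per-animal gaps that do not overlap) and the member of each of 28 lists with the lowest p. Remaining called genes are named because they were called. Members and lists were chosen with earlier results of these data known. Alternatives changed the libraries fitted, pairing, filter, missing values, centring and spread estimate, and left out each library. Library weights and leaving out KO 1 or KO 2 whole were added after seeing the data. 1 gene called in both muscles is not reported here.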

Additional observations from a re-analysis of the deposited data

Results flagged for a closer look

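The test of the difference between the muscles passed in 28 genes (limma adjusted p under 0.05), given as the change in soleus minus the change in EDL, log2. The positive ones were Anxa4 (0.97), Bop1 (0.81), Ccl21b (4.52), Eda2r (1.70), Ltbr (0.94), Mllt3 (0.46) and Tbc1d10b (0.80). Negative values were those of Bzw2 (-0.58), Gmnn (-2.06), Gzf1 (-0.70), Hccs (-0.53), Klhl7 (-0.52), Lrtm1 (-2.08), Mospd1 (-0.73), Mrpl14 (-0.62), Nadk2 (-0.89) and Nup133 (-0.79). Further negative values were those of Pcbd1 (-2.60), Pex7 (-0.69), Phpt1 (-0.53), Plin3 (-1.31), Ppil4 (-0.69), Reep5 (-0.48), Rnaset2b (-1.73), Slc2a12 (-1.16), Zfp383 (-1.04), Zfp638 (-0.52) and Zfp68 (-0.64).

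Among the named genes, the test of the difference between this contrast in the ERRbeta/ERRgamma class and that in the ERRalpha/ERRgamma class passed in 10: Acot13 (-0.81), Atp5h (-0.69), Csrp3 (6.04), Esrra (-1.57), Hccs (-0.75), Ndufb8 (-0.98), Ppil4 (-0.78), Sdhb (-1.41), Slc16a1 (-1.49) and Tbc1d10b (0.78).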

How the results depend on the processing

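With the animal as a replicate block, which pairs the 2 muscles of a mouse, the contrast called 105 genes, the 28 among them, and with 1 difference per animal it called 0 (1285 at an unadjusted p under 0.05). That block moved no other count of calls by over 1.5 times. With the 12 libraries of the class alone the counts were 0 for the contrast (1056 unadjusted), 265 for soleus and 11 for EDL. The contrast called 46 genes with the filter at the median and 14 with no intensity trend. Leaving out 1 library gave 1 (soleus KO 1) to 521 (soleus KO 2) genes for the contrast, 396 to 2139 for soleus, 11 to 25 for EDL and 108 to 261 for the difference between the classes. The median of EDL-high genes ran from -0.0705 to 0.00601 and that of soleus-high genes from -0.0264 to 0.0747. Library weights, chosen after seeing the data, gave 588 for the contrast, 2469 for soleus, 88 for EDL, 508 for the ERRalpha/ERRgamma contrast and 424 for the difference. Leaving out mouse KO 1 whole gave 4, 399 for soleus and 102 for the difference, and leaving out KO 2 gave 296, 2041 for soleus and 14 for EDL. The sign turned for Retn with missing values at the lowest value (-2.68), and for Hba-a2 without EDL WT 1 (0.029), soleus WT 2 (0.16) or EDL WT 3 (0.12), with a range from -0.37 to 0.16 over the fits without 1 library. No sign of a called gene turned in any of these. The cause of these differences between fits was not tested. Depth is unknown, and low genes such as Ccl21b lack values in some libraries.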
